A study of Mus musculus with 2 samples.

Results

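Lysosomal hydrolases and lysosomal membrane proteins were followed as a set of 41 genes, taken by name from the array's gene annotation, older names included. All 41 were well above background on both arrays, out of 16017 genes measured there, and were grouped by what their products act on: glycolipid (7 genes), glycan (13), protein (4), lipid (5), membrane (7) and regulators (5). The study compared RAW 264.7 cells, an established mouse macrophage-like line that can form osteoclast-like cells. The RCCS group was kept in a rotary cell culture system, a rotating vessel that models microgravity, for 24 h, with RANKL, the cytokine that drives osteoclast formation, at 80 ng/ml for 24 h. The control group was a ground-based culture kept in parallel, and the protocol text, which is the same for both samples, does not settle whether it received RANKL. Both were grown in DMEM with fetal bovine serum. Each group is 1 array from 1 RNA sample of this line, and both arrays lay on the same slide and were scanned together. There was thus no replicate and no test between the conditions, and the number of arrays limits the precision of every value. In a bulk sample, fewer cells of a kind and less RNA per cell cannot be told apart.

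The lysosome is the acidic compartment in which macrophages break down what they take up. Soluble acid hydrolases reach it with a mannose 6-phosphate tag that receptors in the Golgi and endosomes recognise, and heavily glycosylated membrane proteins line its inner face. In osteoclasts the same enzymes are also secreted through the ruffled border towards the bone surface. Many of these genes share an E-box in their promoters that TFEB and TFE3, transcription factors of the MiT/TFE family, are known to bind. Loss of single members causes lysosomal storage disorders in humans.

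Values are Agilent processed signals, which are background-subtracted intensities. Ratios are log2 of RCCS over control after each array was divided by its own 75th percentile (849 for control and 966 for RCCS), so raw signals of the arrays differ by that factor before any difference is read. The error given is the 95% half-width computed from Feature Extraction's own error of each spot, which covers spots and not cultures. For members with 1 measured probe it was 0.40 to 0.41 throughout, close to a preset width rather than a spread measured here. For genes with several measured probes it combines the spot errors of the probes, and a gap between probes does not widen it. The narrower half-widths of such genes thus do not show that their probes match. The 10 spots of 1 Gusb probe had an SD of 0.03 in log2 ratio. Where a pair of signals is given for a probe or gene, the control array comes first. The median of all measured genes was a log2 ratio of -0.13. All 8 macrophage markers looked at, which include the member Cd68 (0.00), were measured on both arrays. A log2 ratio above 0 was found for 7 of them, Cd68 included (87.5%, against 38.2% of all measured genes), and the median of the 8 was 0.15. Among them Itgam, an integrin subunit, read 1289 and 5768 (a log2 ratio of 2.0), and Spi1, the transcription factor PU.1, was at -0.72. Their part in the members' values was not tested. Of 20 markers of 5 other cell types, 9 were measured on both arrays, and none of these had a signal above 149 (control) or 141 (RCCS).

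Most lysosomal genes stood higher on the RCCS array, by modest amounts. Of the 41 members, 34 had a log2 ratio above 0 and 7 below, where 38.2% of all measured genes lay above 0. The median of the members was 0.30, or 0.43 relative to the median of all genes, and 37 of the 41 lay above that median. At least 2-fold higher were 3 members, Gla, Sgsh and Gaa (7.32% of members and 3.88% of all genes), and 0 were at least 2-fold lower (3.76% of all genes). At a threshold of 1.5-fold, 11 members were higher (9.73% of all genes) and 1 was lower (14.8%). Above 0 by more than the spot error were 18 members (15.7% of all genes) and below it 3 (27.5%), which were Npc2, M6pr and Ids. With loess on mean signal in place of this scaling these 3 came to -0.34, -0.03 and -0.19, each within its half-width of 0. For members with 1 measured probe the bound amounts to a cut-off of 0.40 to 0.41. Among the 4005 measured genes with the highest mean signal, which include 23 members, 20 of those 23 lay above 0 (87.0%), against 25.2% of the 4005.

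**Figure D1:**
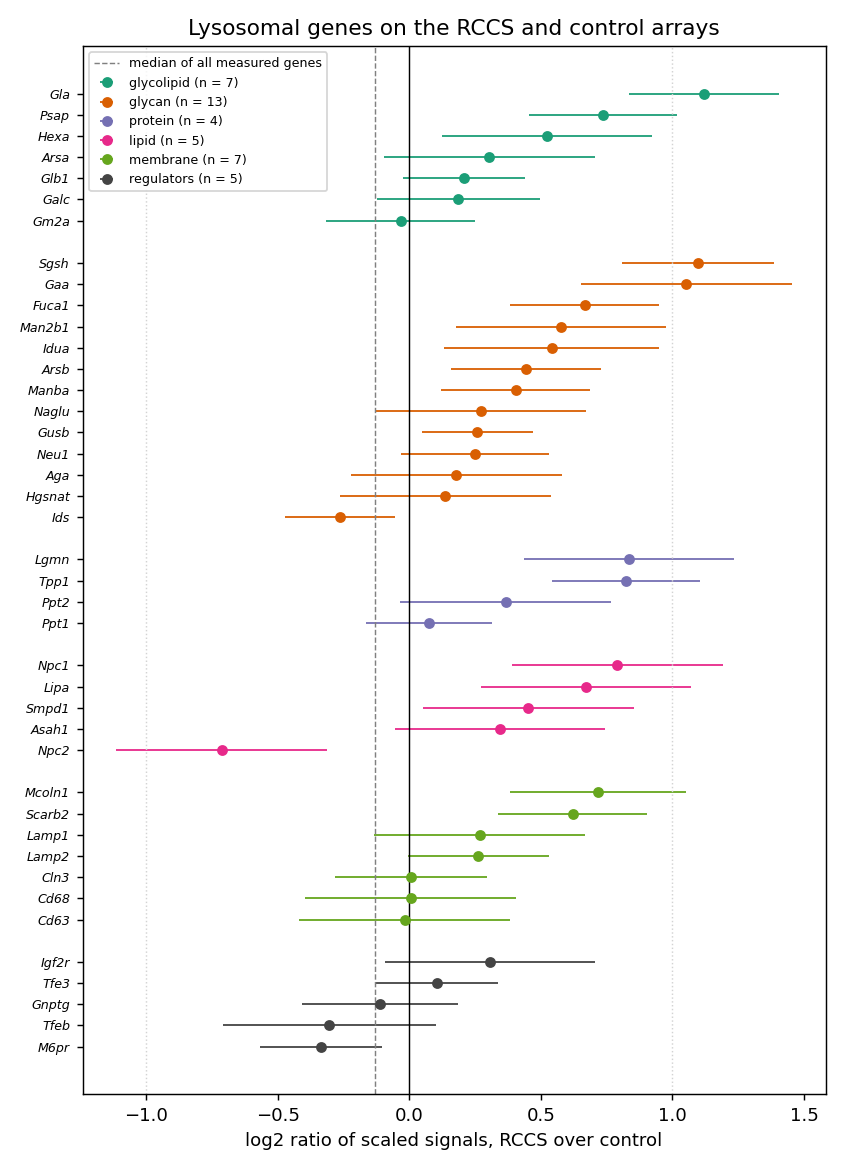
Log2 ratio of scaled signal, RCCS over control (x axis), of the 41 members (y axis), coloured by class, with bars for the 95% half-width from the spot error of 1 array a group. The dashed line is the median of all measured genes at -0.13, dotted lines mark 2-fold, and Gla, Sgsh and Gaa are the points beyond it while Npc2 lies at -0.71.

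**Figure D2:**
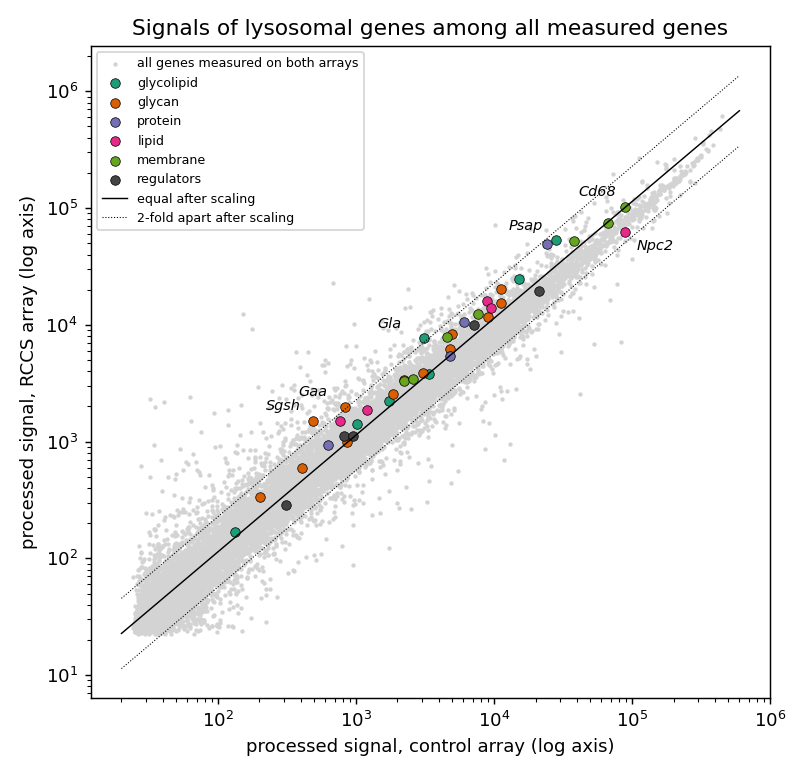
Processed signal on the RCCS array (y axis, log scale) against the control array (x axis, log scale) for the genes measured on both arrays (grey) and the 41 members (coloured by class). The solid line marks equal scaled signals and the dotted lines 2-fold. Most members lie above the solid line, but at the highest signals Cd63 and Cd68 lie close to it. Of the members below the line, Npc2 lies farthest from it.

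Enzymes and cofactors of glycolipid breakdown had a median log2 ratio of 0.30 over 7 genes, with 6 above 0. Gla encodes alpha-galactosidase A, which removes terminal galactose from globotriaosylceramide. Its 2 probes read 195 and 6058 in control cells and 487 and 14826 under RCCS. Both probes were higher on the RCCS array by nearly the same ratio (log2 1.13 and 1.11), and the gene stood at 1.12 with a half-width of 0.29 (2.17-fold). Psap, the precursor of the saposins that present glycolipids to their enzymes, went from 27675 to 51573 and from 28157 to 54196 at its 2 probes. These gave 0.71 and 0.76, a mean of 0.74 (1.67-fold), and again the probes did not part. Hexa, the alpha subunit of beta-hexosaminidase, read 15075 and 24645, a log2 ratio of 0.52 with a half-width of 0.40.

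The other glycolipid genes lay closer to 0. Arsa, arylsulfatase A, which acts on sulfatide, was at 0.30 (signals of 1013 and 1422). Glb1, beta-galactosidase, was at 0.21 and Galc, galactosylceramidase, at 0.19, each with a half-width that includes 0. Gm2a, the activator that lifts the ganglioside GM2 to hexosaminidase A, was the member of this class below 0, at -0.03, and its 2 probes gave -0.04 and -0.03. With spike-in scaling Gm2a came to 0.27, so its sign was not fixed.

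Glycan-degrading enzymes, the largest class, had a median of 0.40, and 12 of 13 were above 0. Sgsh encodes the sulfamidase that takes N-linked sulfate off heparan sulfate. Its probes read 134 and 840 in control cells and 241 and 2749 under RCCS. Both were higher on the RCCS array, but by 0.67 and 1.53, and their mean was 1.10 with a half-width of 0.29 (2.14-fold). Neither Sgsh probe lay within that half-width of the mean. Gaa, the acid alpha-glucosidase that digests glycogen, had 1 probe, which read 834 and 1968, a log2 ratio of 1.05 with a half-width of 0.40 (2.07-fold). After normexp background correction with 75th percentile scaling Gla came to 0.98 and Sgsh to 0.96, and Gaa alone of the members was at least 2-fold higher. Scaled on the spike-in probes, 8 members were at least 2-fold higher. Of all 16017 measured genes, 622 were at least 2-fold higher under the reported scaling, 364 after that normexp correction and 1189 on the spike-in probes.

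Fuca1, the alpha-L-fucosidase, was at 0.67, with 11159 and 11177 in control cells and 20085 and 20213 under RCCS at its 2 probes, which nearly coincided. Man2b1, the lysosomal alpha-mannosidase, was at 0.58 (4953 and 8402), and at 0.13 when a probe that neither array called well above background was counted too. Idua, the alpha-L-iduronidase of heparan and dermatan sulfate, was at 0.54 from signals of 203 and 336. Arsb, arylsulfatase B of dermatan sulfate, averaged 0.45 from probes at 0.15 and 0.74, and Manba, the beta-mannosidase, 0.40 from probes at 0.39 and 0.42. These 5 lay above 0 by more than the spot error. When a further dim probe was counted too, Manba came to 0.13 and Arsb to 0.16, and Arsb by its brightest probe to 0.15.

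Nearer to 0 stood Naglu (0.27), which takes N-acetylglucosamine off heparan sulfate, Gusb (0.26), the beta-glucuronidase, and the sialidase Neu1 (0.25). Aga, which cuts the link between asparagine and glycan, was at 0.18 and Hgsnat, the membrane enzyme that acetylates heparan sulfate, at 0.14. One Gusb probe was printed in 10 spots on each array. Those spots ran from 16718 to 18583 with a median of 17674 in control cells and from 20701 to 23842 with a median of 22797 under RCCS. After scaling the ranges overlapped at their ends, and the spots, taken by position, gave log2 ratios from 0.12 to 0.23 with a mean of 0.17 ± 0.03 (SD, n = 10 spots), a spread within arrays that is not one between cultures.

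Ids, the iduronate 2-sulfatase that starts heparan and dermatan sulfate breakdown, was the glycan enzyme below 0, at -0.26 with a half-width of 0.21. Its 4 probes parted. The probe at 2914 in control cells and 3478 under RCCS gave 0.07, and the dimmer probes, with signals of 94.9 to 278, gave -0.08, -0.40 and -0.65. By its brightest probe Ids therefore lay at 0.07 and not below 0.

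Sequences are shown for the promoters of the 3 members at least 2-fold higher, for Lamp1, which held the most E-boxes, and for Npc2, the member with the lowest ratio. Promoters are those of RefSeq on build GRCm38.p6, from 250 bases before the gene's start to 50 after it, in lower case with each CACGTG in capitals. Their positions are chrX:134600956-134601255 (minus strand) for Gla, chr11:119355461-119355760 (minus strand) for Sgsh and chr11:119267713-119268012 (plus strand) for Gaa. Lamp1 lies at chr8:13158911-13159210 (plus strand) and Npc2 at chr12:84773063-84773362 (minus strand).
Gla: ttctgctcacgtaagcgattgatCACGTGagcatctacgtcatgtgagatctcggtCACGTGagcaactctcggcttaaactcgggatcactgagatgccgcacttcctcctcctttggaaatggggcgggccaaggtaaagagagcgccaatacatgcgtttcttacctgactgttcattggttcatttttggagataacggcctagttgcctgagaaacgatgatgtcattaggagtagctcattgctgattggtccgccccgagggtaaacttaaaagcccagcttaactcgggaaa
Sgsh: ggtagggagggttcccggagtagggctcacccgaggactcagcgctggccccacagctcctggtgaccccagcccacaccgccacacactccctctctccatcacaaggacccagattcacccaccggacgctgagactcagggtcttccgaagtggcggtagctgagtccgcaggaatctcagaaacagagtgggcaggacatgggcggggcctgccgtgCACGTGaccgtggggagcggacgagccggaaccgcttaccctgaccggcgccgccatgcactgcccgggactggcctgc
Gaa: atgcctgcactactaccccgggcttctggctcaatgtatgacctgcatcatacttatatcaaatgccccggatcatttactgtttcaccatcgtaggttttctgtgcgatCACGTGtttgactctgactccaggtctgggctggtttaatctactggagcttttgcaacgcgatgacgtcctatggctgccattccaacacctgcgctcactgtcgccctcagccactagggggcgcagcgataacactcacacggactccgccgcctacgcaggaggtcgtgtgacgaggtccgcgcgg
Lamp1: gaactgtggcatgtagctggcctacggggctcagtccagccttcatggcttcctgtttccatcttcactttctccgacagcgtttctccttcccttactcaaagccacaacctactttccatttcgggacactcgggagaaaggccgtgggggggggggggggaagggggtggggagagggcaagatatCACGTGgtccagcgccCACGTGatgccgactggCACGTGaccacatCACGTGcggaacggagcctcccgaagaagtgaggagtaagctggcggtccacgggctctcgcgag
Npc2: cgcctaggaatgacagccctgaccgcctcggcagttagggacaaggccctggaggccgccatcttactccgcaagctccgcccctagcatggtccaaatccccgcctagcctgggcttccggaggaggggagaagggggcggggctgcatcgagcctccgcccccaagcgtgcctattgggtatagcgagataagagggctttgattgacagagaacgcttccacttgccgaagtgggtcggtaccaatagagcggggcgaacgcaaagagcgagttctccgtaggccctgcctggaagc

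Gla held 2 E-boxes, which began 227 and 194 bases before the start. Sgsh held 1, 29 bases before the start, and Gaa 1, 140 bases before it. Lamp1 held 4, beginning 61, 45, 28 and 15 bases before the start, and Npc2 held 0. The motif CACGTG reads the same on both strands, and 12 of the 36 members with a promoter in the table held it (33.3%), against 11.4% of 9996 genes measured on both arrays and 8.09% of 27025 genes in the table. The lists of genes around the members held it in 35.3% of 17 sorting genes, 31.6% of 19 genes of MiT/TFE control, 22.2% of 18 other hydrolases and 15.0% of 20 other membrane proteins. In all 12 at least 1 match was part of the longer TCACGTG on either strand, which 6.63% of measured genes held. Sorting genes held TCACGTG in 35.3%, MiT/TFE control in 31.6%, other hydrolases in 16.7% and other membrane proteins in 10.0%. The palindrome TCACGTGA, which contains both shorter motifs, was found in 5 members (13.9%) and in 2.08% of measured genes. The same lists held the palindrome in 17.6%, 0%, 11.1% and 10.0%, in that order. The others with a CACGTG were Arsa, Glb1, Naglu, Lgmn, Cln3, Mcoln1, Gnptg and Igf2r. Members with the motif had a median log2 ratio of 0.31 (n = 12) and those without it also 0.31 (n = 24), and the 3 members at least 2-fold higher were among the former. A match is a description of these letters and no evidence of binding. Aga, Asah1, Hgsnat, M6pr and Npc1 were not searched.

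Among the genes for breakdown of proteins and protein-bound lipid, all 4 lay above 0, with a median of 0.59. Lgmn, the asparagine-specific protease legumain that also activates cathepsins, read 24420 and 49538, a log2 ratio of 0.83 with a half-width of 0.40 (1.78-fold). Tpp1, which trims tripeptides from protein ends, was at 0.82 (1.77-fold), and its probes read 692 and 11403 in control cells and 1626 and 19671 under RCCS. Both Tpp1 probes were higher on the RCCS array, by 1.05 and 0.60. Ppt2, a thioesterase, was at 0.37 (632 and 927). Ppt1, which takes palmitate off proteins, was at 0.08, and its 3 measured probes ran from -0.21 to 0.26 on both sides of 0.

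Under the reported scaling, lipid handling held the members that lay farthest apart within a class. With quantile normalization the glycan class was wider, from -0.25 (Ids) to 1.11 (Sgsh), against -0.36 (Npc2) to 0.91 (Lipa). Npc1 and Npc2 carry cholesterol out of the lysosome in sequence, Npc2 as the soluble carrier and Npc1 as the membrane protein that receives it. Npc2 read 89681 in control cells and 62204 under RCCS, the lowest log2 ratio of the 41 members at -0.71 with a half-width of 0.40 (1.64-fold lower). It lay below 0 in all 11 alternatives. Within that half-width of 0 it came to -0.36 with quantile normalization, -0.34 with loess and -0.31 after normexp with quantile normalization. Npc1 read 770 and 1516, at 0.79 with a half-width of 0.40 (1.73-fold higher), so the 2 intervals did not meet. Neither array called a second Npc1 probe well above background, and with it Npc1 came to 0.21.

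Lipa, the acid lipase that frees cholesterol from its esters, read 8906 and 16133, a log2 ratio of 0.67 with a half-width of 0.40. Smpd1, acid sphingomyelinase, was at 0.45 (1208 and 1881) and Asah1, acid ceramidase, at 0.34 (9587 and 13845). These 3 enzymes lay above 0 as Npc1 did, Lipa and Smpd1 by more than the spot error. Counted with the glycolipid class instead, Smpd1 and Asah1 left both class medians within their spot error. The lipid median, over Npc1, Npc2 and Lipa, was then 0.67 in place of 0.45, and the glycolipid median 0.34 in place of 0.30.

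The membrane proteins had a median of 0.26 over 7 genes, and of 0.45 with quantile normalization. Mcoln1 encodes TRPML1, the channel that releases calcium from lysosomes. Its probes read 4411 and 43.2 in control cells and 6493 and 103 under RCCS. The brighter probe gave 0.37 and the dim one 1.06, so the mean of 0.72 rests in part on a probe near background, and after normexp with 75th percentile scaling Mcoln1 came to 0.37. Scarb2, the LIMP-2 carrier of glucocerebrosidase, was at 0.62 with a half-width of 0.28, and its probes agreed at 0.56 and 0.68 (5609 and 3501 for control, 9396 and 6392 for RCCS).

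Lamp1 and Lamp2 encode the main glycoproteins of the lysosomal membrane. Lamp1 read 37914 and 51897, a log2 ratio of 0.27 with a half-width of 0.40. For Lamp2 the probe annotated to transcript variant 1 read 16110 and 27497 and the probe annotated to variant 2 read 6637 and 9921. These gave 0.59 and 0.39, while the third Lamp2 probe, at 53.4 and 53.1, gave -0.19, for a gene mean of 0.26. The tetraspanin Cd63 (66560 and 74751), the macrophage glycoprotein Cd68 (89271 and 101856) and Cln3 were at -0.02, 0.00 and 0.01. Their half-widths of 0.29 to 0.40 include both 0 and the median of all genes.

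**Figure D3:**
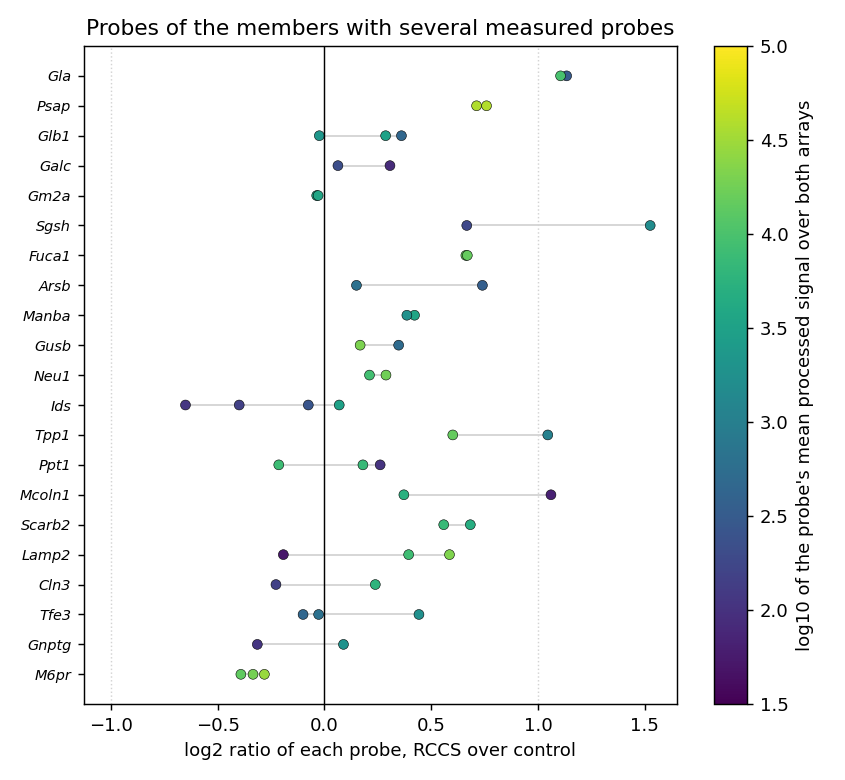
Log2 ratio, RCCS over control (x axis), of each probe of the 21 members with more than 1 probe measured on both arrays (y axis), coloured by log10 of the probe's mean signal. Gla, Psap, Fuca1 and M6pr have probes close together, while Sgsh, Mcoln1, Ids and Lamp2 have probes that part. The dim probes of Sgsh, Ids and Lamp2 lie at the low end and that of Mcoln1 at the high end.

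The genes that sort the enzymes and switch them on had a median close to that of all genes. Over the 5 regulators it was -0.11, or 0.02 relative to all genes, with 2 above 0 and 3 below. M6pr, the small mannose 6-phosphate receptor, had 3 probes, which read 29488, 19340 and 14931 in control cells and 27602, 17447 and 12949 under RCCS. All 3 probes lay below 0 (-0.28, -0.33 and -0.39), and the gene stood at -0.34 with a half-width of 0.23. With loess scaling or quantile normalization it came to -0.03 and -0.04. Igf2r, the large receptor for the same tag, read 7140 and 10044, at 0.31 with a half-width of 0.40. Gnptg, a subunit of the enzyme that attaches the tag, was at -0.11, with probes at -0.31 and 0.09.

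The transcription factor genes lay on both sides of 0. Tfeb read 312 in control cells and 288 under RCCS, a log2 ratio of -0.30 with a half-width of 0.41, and 0.00 with spike-in scaling. Tfe3 was at 0.11, and its probes read 1420, 597 and 438 in control cells and 2195, 666 and 464 under RCCS. The Tfe3 probe of the RefSeq transcript gave 0.44 and the other 2 gave -0.03 and -0.10. RNA levels say nothing of where these factors sit in the cell.

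Hydrolases and membrane proteins outside the 41 also lay mostly above 0. Of 25 other hydrolases measured, 21 were above 0 (84.0%, against 38.2% of all genes), with a median of 0.39. At least 2-fold higher were 2 (8.0%, against 3.88% of all genes), and 0 were lower (3.76% of all genes). Smpdl3a, an acid-sphingomyelinase-like phosphodiesterase, was at 1.71 (4652 and 17318), the hyaluronidase Hyal1 at 1.55 (153 and 510), Man2b2, a mannosidase, at 0.92, and Ggh, gamma-glutamyl hydrolase, at 0.84. Of 23 other membrane proteins and transporters, 19 were above 0 (82.6%) and 3 at least 2-fold higher (13.0%, 0 lower), with a median of 0.36. These 3 were the peptide transporter Slc15a3 (1.42), Lmbrd1, of the cobalamin exit route (1.12), and Tmem106b (1.01, with probes from 0.50 to 1.90). The measured probes of Lmbrd1 parted, the brighter at 0.72 and the dimmer at 1.52. Next came Laptm4b at 0.93 from dim signals of 44.2 and 95.6. Hydrolases and membrane proteins outside the set thus had medians above that of all genes too.

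Sorting genes also had a median close to that of all genes. The list covers adaptors, retromer, tethering complexes, a sorting receptor and enzymes of the mannose 6-phosphate tag. Of its 22 genes, 10 were above 0 (45.5%, against 38.2% of all genes) and 12 below, with a median of -0.08. None was at least 2-fold apart, where 3.88% of all genes were higher and 3.76% lower. The adaptor subunit Ap1s2 was at 0.68 and Vps41, of the HOPS tethering complex, at 0.50, while the adaptor Gga2 was at -0.55 and Nagpa, which uncovers the mannose 6-phosphate tag, at -0.53. The genes of mTORC1 and folliculin signalling, which control MiT/TFE factors, and the family members Mitf and Tfec had a median of 0.08 over 19 measured. Of these, 11 were above 0 (57.9%, against 38.2% of all genes). The highest were Fnip1 (1.14, with probes from 0.38 to 1.49) and Fnip2 (1.08), which encode partners of folliculin, Tfec (0.76), a relative of Tfeb, and Flcn (0.65), which encodes folliculin itself. Fnip1 and Fnip2 were at least 2-fold higher (10.5% of the list, against 3.88% of all genes). At least 2-fold lower were 0 genes of this list (3.76% of all genes). Differences between these lists and the members were not tested.

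**Figure D4:**
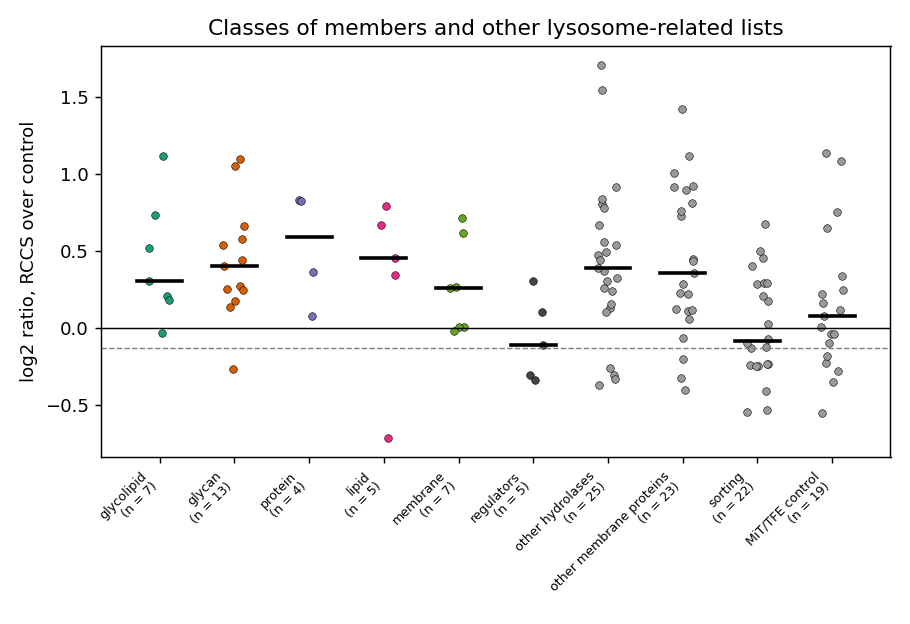
Log2 ratio, RCCS over control (y axis), of each measured gene in the 6 classes of members (coloured) and the 4 other lysosome-related lists (grey), with a bar at each median. The dashed line is the median of all measured genes at -0.13; the medians of regulators (-0.11) and sorting genes (-0.08) lie beside it and the other lists above it.

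The median of all members ran from 0.26 without a filter on dim probes to 0.61 with spike-in scaling over the 11 alternatives, and relative to all genes from 0.43 to 0.51. The sign was the same in all 11 for 33 members. It changed in at least 1 for Gm2a, Naglu, Ids, Ppt1, Cd63, Cln3, Gnptg and Tfeb. These counts are not independent trials. All alternatives but the one without a filter on dim probes moved the median of all genes upward. For a member with 1 probe in all, those on filter and probe choice returned the reported value.

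**Figure D5:**
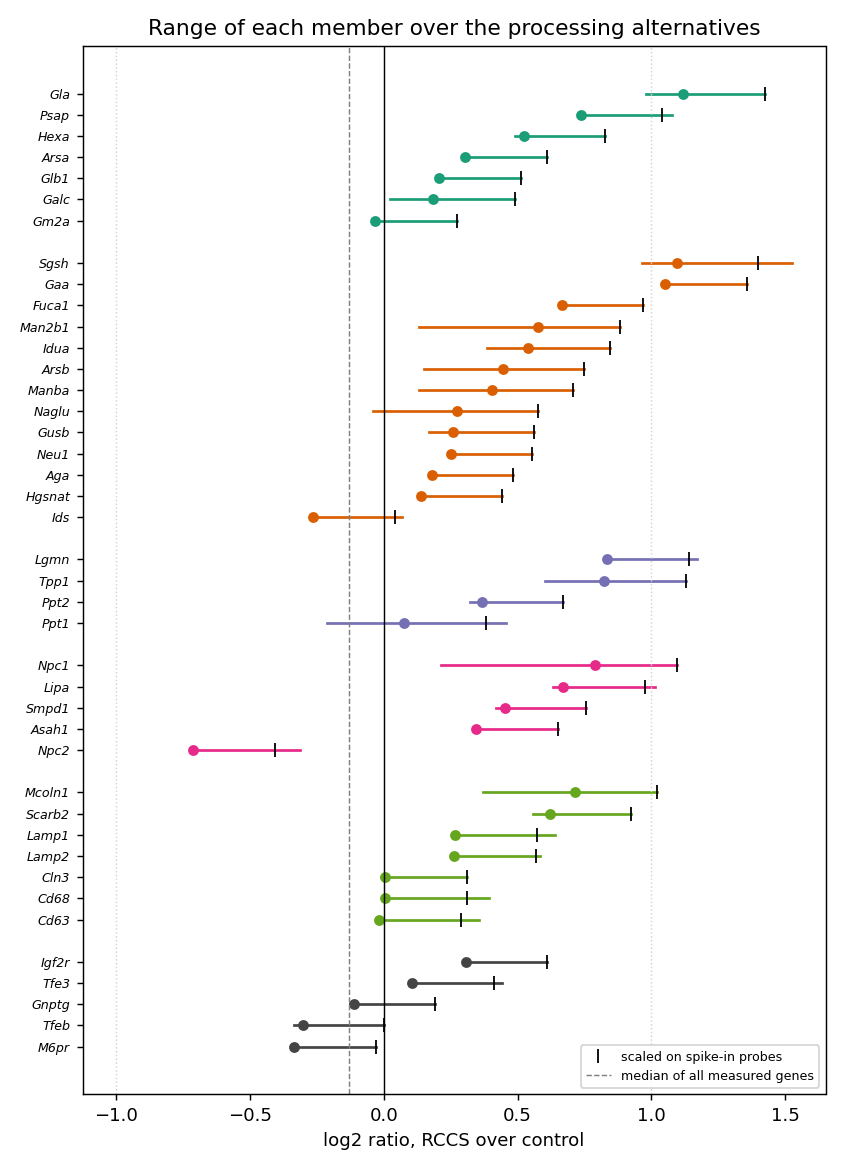
Log2 ratio, RCCS over control (x axis), of each member (y axis) with 75th percentile scaling (point), its range over that and the 11 alternatives (line) and its value when scaled on the spike-in probes (black tick). Npc2 stays below 0 and Gla, Sgsh and Gaa at or above 0.96 throughout.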

How the data were processed

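Total RNA of 2 samples, 1 control and 1 RCCS, was hybridised to 1-colour arrays. The deposited spot intensities were made by the authors with Agilent Feature Extraction 9.5.3.1, per the file headers, with background subtracted and surface trends removed. The table of ratios the authors deposited matches these signals divided by 849 and 964, near each array's 75th percentile, with a lowest value of 0.01. Its medians were 0.06 on both arrays. Each value is thus a signal over a constant of its own array and not a ratio between the arrays. Any centring over genes is unstated.

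Spots flagged as outliers on either array were left out (304), spots of a probe were averaged, and a probe counted as measured where at least 50% of its spots were well above background on both arrays. Each array was divided by its 75th percentile over 41171 probes, and log2 ratios of measured probes were averaged by gene. Accessions of 22950 probes took their symbol from RefSeq (GRCm38.p6); 5 members include a probe filed under an older name. The members had 77 probes, 69 of them measured. No test was possible with 1 array a group. The calculation was tested on simulated data. Tools were Python 3.11.15, pandas 2.3.3, statsmodels 0.14.6 (loess), and R 4.3.3 with limma 3.58.1 (normexp, offset 50). Alternatives varied scaling, background correction, value source, filter, probe choice and threshold. All members are named, with up to 4 genes of each other list by absolute log2 ratio. Members and lists were chosen with earlier results of these data known. The build behind the array's probe coordinates is not stated in the sources used, so none are printed.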

Additional observations from a re-analysis of the deposited data

How the results depend on the processing

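No value changed sign among the members at least 2-fold apart. The median of all measured genes moved by 0.14 when scaled at the 75th percentile of measured probes, by 0.31 on spike-in probes, by 0.13 with loess and by -0.12 without a filter on dim probes. Medians below are log2 ratios. At the 75th percentile of measured probes all members came to 0.44, glycan 0.54, other hydrolases 0.53, other membrane proteins 0.50, sorting 0.058 and MiT/TFE control 0.21. On 8 of the 10 spike-in probes, those measured on both arrays, all members came to 0.61, glycolipid 0.61, glycan 0.71, protein 0.90, lipid 0.76, membrane 0.57, regulators 0.19, other hydrolases 0.69, other membrane proteins 0.66, sorting 0.22 and MiT/TFE control 0.38, with 8 members at least 2-fold higher. Quantile normalization gave 0.45 for all members, 0.45 for membrane, 0.55 for other hydrolases and 0.22 for MiT/TFE control, with 5 members higher. Loess gave 0.49, with glycan 0.52, membrane 0.49, other hydrolases 0.56, other membrane proteins 0.47, sorting 0.060 and MiT/TFE control 0.28, and 5 members higher. Normexp with quantile normalization gave 0.39, with membrane 0.50, other hydrolases 0.50, sorting 0.033 and MiT/TFE control 0.24. Normexp with 75th percentile scaling left 1 member at least 2-fold higher. The count of all 16017 genes at least 2-fold higher moved too, from 622 under the reported scaling to 1189 on spike-in probes. It was 674 with quantile normalization, 764 with loess and 364 with normexp and 75th percentile scaling. Without a filter the glycan median was 0.18 and that of other membrane proteins 0.24, and with a signal of at least 100 the latter was 0.46. By brightest probes the regulators came to 0.089. At 1.5-fold, 11 members were higher (9.73% of all genes) and 1 lower (14.8%), and at 3-fold 0 were higher. The share of all genes at 3-fold was not computed, so that count cannot be set against it. The causes were not tested. Of 451 single values of members under the alternatives, 413 stayed within the spot error. This count includes values that an alternative could not change, such as those on probe choice for members with 1 probe. Calls over all genes split 50.8% higher under the reported scaling, 66.7% at the 75th percentile of measured probes, 81.9% on spike-in probes, 64.0% with loess and 62.6% with normexp and quantile normalization. No paired analysis was possible because each group has 1 array.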
